A study of Homo sapiens with 6 samples.

Results

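The genes of the potassium, sodium, calcium and TRP channels, with their auxiliary subunits, were examined in human cardiomyocytes treated with control siRNA or with siRNA against CIRBP, a cold-inducible RNA-binding protein. They were chosen by symbol: names beginning with KCN or CACN, with SCN or HCN and a digit, or with TRPC, TRPM or TRPV and a digit, leaving out names with a hyphen or ending in OT, IT or P and digits. Of 58884 genes in the deposited table, 162 had such a name. Of these, 57 reached 10 estimated counts in at least 3 of the 6 libraries and are described here, 105 did not, and 32 of the 105 were listed at 0 counts in every library. The symbol rule also took in TRPC4AP and KCNRG, which are not channels, and left out the KCNIP genes, whose names end in P and a digit.

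The cells are immortalized human ventricular cardiomyocytes, but the sources name different lines: the labels give T0519, whereas the text of the study gives AC16, a separate line that it also used, and which was sequenced was not settled here. RNA-seq was done on 3 libraries of cells transfected with negative control siRNA (NC) and 3 of cells transfected with CIRBP siRNA (SiCIRBP), and neither group carried any other treatment in the labels. The study set NC_1 and SiCIRBP_2 aside as discrepant, so values are given first for NC_2, NC_3, SiCIRBP_1 and SiCIRBP_3 and then for all 6 libraries. Nothing in the sources used here says whether the libraries came from separate cultures, so the spread behind the p-values may be technical. The study dropped NC_1 and SiCIRBP_2 after correlation and principal component analysis of these same data. The p-values over the 4 libraries leave out the spread of those libraries and may be too small.

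Voltage-gated sodium and calcium channels open when the membrane depolarizes, potassium channels bring it back to rest, and the auxiliary subunits set how many channels reach the surface and how fast they gate. In the ventricle, the L-type calcium channel CACNA1C triggers contraction and the potassium channels KCNQ1, KCNH2 and KCNJ2 repolarize the cell and hold its resting potential. TRP channels are a separate family of mostly non-selective cation channels that respond to calcium, lipids, heat, stretch or swelling.

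CIRBP itself stood at 86.4, 85.9 and 91.9 normalized counts scaled to library size (CPM) in NC_1, NC_2 and NC_3 and at 54.6, 24.2 and 45.9 in SiCIRBP_1, SiCIRBP_2 and SiCIRBP_3. All SiCIRBP values lay below all NC values, and SiCIRBP_2 was the lowest. The log2 fold change was -0.81 (SE 0.11, adjusted p = 0.00828 by edgeR's quasi-likelihood test) over the 4 libraries and -1.07 (SE 0.26, adjusted p = 0.103) over all 6. The libraries held 25726259 to 29919566 estimated counts. Of 20 cardiomyocyte markers, 16 were under 1 TPM (transcripts scaled to library size, a level per transcript length) in every library and 8 of them, among them MYH6, MYL2, TTN, RYR2 and PLN, were listed at 0 in every library, whereas GATA4 (22.6 to 63.0 TPM), ACTN2 and NKX2-5 were present. The summed TPM of this list was 73.0 to 89.8 in NC and 41.7 to 61.5 in SiCIRBP libraries. For 14 fibroblast and mesenchymal markers, 12 of which reached 1 TPM in some library, it was 4361 to 4648 and 4184 to 6004. Most of the contractile and calcium-release genes that define a ventricular cardiomyocyte were thus at 0 or under 1 TPM.

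The most abundant channel gene was a potassium channel, and most members were low. On the TPM scale, 9 of the 57 genes had a mean of 10 or more over the 6 libraries, 28 lay between 1 and 10, and 20 were under 1. KCNMA1, the pore of the large-conductance potassium channel opened by calcium and depolarization, had a mean of 222 TPM and made up 42.8% of the summed mean of all 57 (517.9 TPM). It was followed by TRPC4AP (53.6 TPM), a TRPC4-associated protein that serves a ubiquitin ligase, CACNB3 (31.4 TPM), a cytoplasmic beta subunit of calcium channels, and KCNG1 (30.9 TPM), a silent subunit that modifies Kv2 channels. KCNE4, a small membrane subunit of voltage-gated potassium channels, had a mean of 23.8 TPM and TRPM7, a magnesium- and zinc-permeable channel fused to a kinase, one of 22.4 TPM. CACNA1A, the pore of the P/Q-type calcium channel best known from neurons, reached 14.2 TPM, CACNG7 11.7 TPM and TRPM4, a calcium-activated monovalent cation channel, 10.5 TPM.

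**Figure D1:**
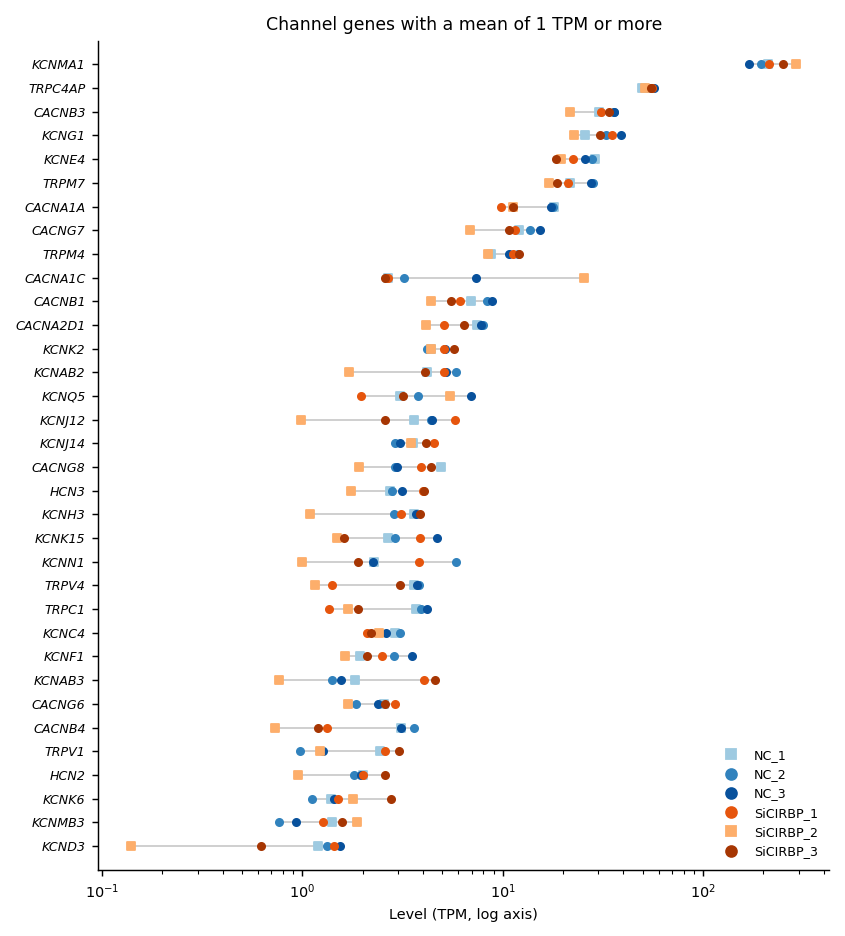
Levels of 34 of the 37 channel genes with a mean of 1 TPM or more, 1 point per library on a log axis of TPM, with squares for the set-aside libraries NC_1 and SiCIRBP_2 and a grey line over the range of each gene. KCNMA1 lies above all others at 170 to 292 TPM, and CACNA1C has 1 library far above the rest.

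Several channels known from cardiac action potentials were low or near 0. CACNA1C had a mean of 7.33 TPM, raised by a single library as described below. KCNQ1 had 0 or 1 count in each library, KCNJ2 3 to 9, HCN4 0 to 10 and KCNH2 6 to 14 counts. KCNA5 was listed at 0 in every library. KCNQ1, KCNJ2, HCN4, KCNH2 and KCNA5 did not meet the count rule, and a difference in them could not be judged at this depth. Other cardiac potassium channel genes had more counts, KCNJ12 with 115 to 693 and KCND3 with 23 to 229. Of the 10 sodium channel pore genes listed, 2 passed the count rule, of 10 calcium channel pore genes CACNA1A, CACNA1C and CACNA1H did, and of 16 inward rectifier genes 4 did. The groups most fully represented were the TRPV channels, 4 of 6, and the calcium channel auxiliary genes, 10 of 16. In bulk RNA, fewer cells of a type and less RNA per cell cannot be told apart.

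The count rule was met through libraries of both groups by every member: 42 reached 10 counts in all 6 libraries, 15 in some libraries of each group, and none in 1 group alone. The member closest to the rule was TRPV2, a cation channel of immune and muscle cells, with 10, 11 and 5 counts in NC_1 to NC_3 and 3, 11 and 7 in SiCIRBP_1 to SiCIRBP_3. The gene closest outside it was KCNC1, a fast voltage-gated potassium channel, with 8, 7 and 10 counts in the NC and 8, 8 and 20 in the SiCIRBP libraries.

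Over the 4 libraries, 8 of the 56 channel genes tested changed at an adjusted p under 0.05, which is 14.3%, against 19.4% of all 15421 genes tested. There were 5 that rose, KCNAB3, TRPV1, KCNJ14 and CACNG8 among them (9.62% of all genes rose), and CACNB4, CACNA1A and TRPM7 fell (3 genes, where 9.76% of all genes fell). A change of at least 2-fold was seen for KCNAB3 and TRPV1 among those that rose (1.82% of all genes) and for CACNB4 among those that fell (1.8%). The median log2 fold change of the channel genes was -0.054, beside -0.0020 for all genes. Over all 6 libraries, edgeR called none of the 57 members and 0 of 15217 genes, with 10 members and 3603 genes (23.7%) at an unadjusted p under 0.05, and the smallest adjusted p of a member was 0.0853. DESeq2 over the same 6 libraries called 4 of the 45 members it gave an adjusted p, CACNB4, CACNA1A, TRPC1 and TRPM7, all lower (4.9% of all genes were lower, 4.4% higher and 9.3% either). Adding NC_1 alone to the 4 libraries left CACNB4, CACNA1A, KCNAB3 and TRPV1 called, and adding SiCIRBP_2 alone left none.

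**Figure D2:**
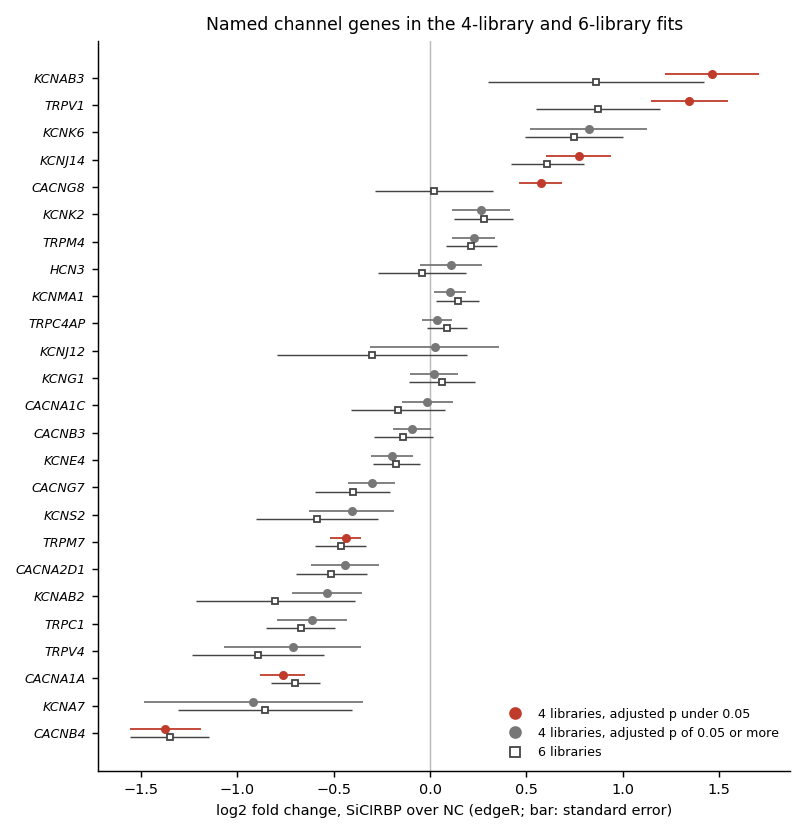
Log2 fold change of SiCIRBP over NC for 25 channel genes tested over 4 libraries, with the edgeR value and its standard error for 4 libraries (circles, red where the adjusted p was under 0.05) above that for all 6 (open squares). CACNB4 and CACNA1A lie at similar values in both fits, whereas KCNAB3, TRPV1 and CACNG8 lie closer to 0 over 6 libraries.

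Of the 8 genes that changed over the 4 libraries, 5 have an entry among RefSeq promoters (GRCh38.p14), as do 38 of the 57 members, and the 250 bases before the most upstream RefSeq start of each are shown, 5′ to 3′ on the strand of the gene, because these are the genes whose levels moved. Capitals mark matches on either strand to 6 short motifs, which are the GC box (GGGCGG), the TATA box (TATAAA), the CCAAT box by its name, the cAMP response element (TGACGTCA), the AP-1 site (TGACTCA) and the E-box (CACGTG). The lowered genes come first, CACNB4 at chr2:152099168-152099417, CACNA1A at chr19:13506480-13506729 and TRPM7 at chr15:50686798-50687047, all on the minus strand, followed by KCNJ14 at chr19:48455324-48455573 on the plus and TRPV1 at chr17:3597043-3597292 on the minus strand.
CACNB4: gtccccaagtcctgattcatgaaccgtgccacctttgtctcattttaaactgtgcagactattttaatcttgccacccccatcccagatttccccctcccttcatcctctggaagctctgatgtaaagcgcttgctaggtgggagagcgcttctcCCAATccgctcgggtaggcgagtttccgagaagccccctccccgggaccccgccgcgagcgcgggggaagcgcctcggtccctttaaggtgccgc
CACNA1A: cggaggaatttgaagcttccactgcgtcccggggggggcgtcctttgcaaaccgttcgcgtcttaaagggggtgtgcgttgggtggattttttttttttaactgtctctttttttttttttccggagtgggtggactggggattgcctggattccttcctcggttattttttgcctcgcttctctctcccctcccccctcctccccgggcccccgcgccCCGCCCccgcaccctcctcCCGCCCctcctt
TRPM7: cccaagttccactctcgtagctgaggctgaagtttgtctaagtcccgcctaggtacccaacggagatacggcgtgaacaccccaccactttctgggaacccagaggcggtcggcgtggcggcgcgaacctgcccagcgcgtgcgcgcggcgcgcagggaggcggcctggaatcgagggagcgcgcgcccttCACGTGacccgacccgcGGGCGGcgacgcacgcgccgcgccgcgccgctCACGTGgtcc
KCNJ14: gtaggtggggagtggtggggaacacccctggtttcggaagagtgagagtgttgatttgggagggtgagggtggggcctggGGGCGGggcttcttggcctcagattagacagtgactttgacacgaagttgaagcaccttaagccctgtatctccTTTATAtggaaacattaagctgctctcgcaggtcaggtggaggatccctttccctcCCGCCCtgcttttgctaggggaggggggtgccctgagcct
TRPV1: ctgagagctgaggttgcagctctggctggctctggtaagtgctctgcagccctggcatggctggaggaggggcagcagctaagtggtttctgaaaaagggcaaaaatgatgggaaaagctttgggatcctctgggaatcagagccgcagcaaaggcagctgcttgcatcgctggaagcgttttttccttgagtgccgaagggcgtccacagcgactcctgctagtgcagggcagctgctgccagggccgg
TRPM7 held 2 E-boxes, a motif found in 6.34% of 35116 promoters, and 1 GC box, found in 42.6%. CACNA1A held 2 GC boxes, and KCNJ14 held 2 GC boxes and 1 TATA box, which 10.7% of promoters held. CACNB4 held 1 CCAAT box, found in 32%, and none of the 6 motifs was in the window of TRPV1. The bases were richest in G and C in TRPM7 (70.8%) and lay between 57.2% and 58.8% in the other four, beside a median of 58% over all promoters. The GENCODE spans of all 5 genes reach into or beyond these windows, so other start sites are annotated for them. These matches describe the sequence and are not shown to be binding sites.

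Among the calcium channel genes, a pore subunit and a beta subunit fell. CACNB4, a beta subunit that brings pore subunits to the surface and speeds their opening (chr2:151832768-152099475), stood at 8.0, 10.3 and 10.0 CPM in NC_1, NC_2 and NC_3 and at 4.30, 3.25 and 3.43 CPM in SiCIRBP_1, SiCIRBP_2 and SiCIRBP_3. Every SiCIRBP library was lower than every NC library, on 83.5 to 302 estimated counts. The log2 fold change was -1.37 (SE 0.19, edgeR adjusted p = 0.00828) over 4 libraries and -1.35 (SE 0.20, adjusted p = 0.0853) over 6, a fold of 0.386 over 4. CACNA1A (chr19:13206442-13633025) stood at 36.9, 39.5 and 43.3 CPM in NC and 22.5, 24.8 and 25.7 CPM in SiCIRBP libraries. The groups did not overlap, and the spread within each was small beside the gap between them. The log2 fold change was -0.76 (SE 0.12, adjusted p = 0.0114) over 4 libraries and -0.70 (SE 0.13, adjusted p = 0.0869) over 6.

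CACNG8, of the gamma subunit family that also regulates AMPA receptors (chr19:53963040-53990215), rose over the 4 libraries, with a log2 fold change of 0.57 (SE 0.11, adjusted p = 0.0200 by edgeR). Its CPM were 33.4, 19.8 and 19.7 in NC and 27.8, 15.2 and 30.3 in SiCIRBP libraries. Both set-aside libraries lay outside the range of the other libraries of their group, NC_1 as the highest of all 6 and SiCIRBP_2 as the lowest, and over 6 libraries the log2 fold change was 0.02 (SE 0.30, adjusted p = 0.974).

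CACNA2D1, the extracellular alpha2delta subunit that gabapentin binds, and CACNG7 lay lower in every SiCIRBP library without passing the test. CACNA2D1 stood at 32.0, 36.1 and 35.0 CPM in NC and 21.1, 19.8 and 30.5 CPM in SiCIRBP libraries (log2 fold change -0.44, adjusted p = 0.125 over 4 libraries), and CACNG7 at 17.6, 20.3 and 20.9 against 17.4, 11.0 and 15.7 CPM (-0.30, adjusted p = 0.119). CACNB3, the most abundant calcium channel subunit, had 35.6, 41.0 and 44.1 CPM in NC and 39.2, 29.8 and 39.5 CPM in SiCIRBP libraries, and the groups overlapped (-0.09, adjusted p = 0.523). CACNA1C had 10.6, 12.9 and 12.4 CPM in NC and 12.9, 6.92 and 11.8 CPM in SiCIRBP libraries, with SiCIRBP_2 alone below the NC values (-0.02, SE 0.13, adjusted p = 0.947 over 4 libraries). Of the 10 calcium auxiliary genes, 1 rose, 1 fell and 8 did not pass the test, where 9.62% of all genes rose and 9.76% fell. Of the same 10, 7 were lowest in SiCIRBP_2, where 32.8% of all genes were.

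Among potassium channel genes, none of the 13 voltage-gated members changed over the 4 libraries, where 19.4% of all genes did. An inward rectifier and an auxiliary subunit rose. KCNJ14, the inward rectifier Kir2.4 (chr19:48455509-48466980), stood at 5.96, 4.55 and 4.61 CPM in NC and at 7.81, 7.38 and 7.63 CPM in SiCIRBP libraries. All SiCIRBP values lay above all NC values, with NC_1 the highest of its group. The log2 fold change was 0.77 (SE 0.17, adjusted p = 0.0266) over 4 libraries and 0.61 (SE 0.19, adjusted p = 0.129) over 6. Of the sequence words of its transcripts, 15.3% also occur in AC008403.2 on the opposite strand and 7.50% in GRWD1, and whether counting used strand is not given in the sources used here. KCNJ12, another inward rectifier of the same subfamily, had a mean of 3.63 TPM over the 6 libraries, beside 3.62 TPM for KCNJ14. KCNJ12 had 14.1, 17.1 and 16.9 CPM in NC and 23.6, 4.44 and 10.4 CPM in SiCIRBP libraries. The SiCIRBP values lay on both sides of the NC range (0.02, SE 0.34, adjusted p = 0.968 over 4 libraries), and 24% of its words occur in KCNJ18, so that its counts are uncertain.

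KCNAB3, a cytoplasmic beta subunit of voltage-gated potassium channels with the fold of an aldo-keto reductase (chr17:7921859-7929803), had 1.97, 1.56 and 1.46 CPM in NC and 3.82, 0.734 and 4.38 CPM in SiCIRBP libraries. SiCIRBP_1 and SiCIRBP_3 were above all NC libraries and SiCIRBP_2, on 19 counts, was the lowest of the 6. It rose over the 4 libraries, where its log2 fold change was 1.46 (SE 0.24, edgeR adjusted p = 0.0139), a fold of 2.75, and the value over 6 was 0.86 (SE 0.56, adjusted p = 0.366). KCNAB2, another member of the same family, had 5.93, 7.23 and 8.02 CPM in NC and 5.66, 1.58 and 4.74 CPM in SiCIRBP libraries, below the NC range in all 3 (-0.54, SE 0.18, adjusted p = 0.0838 over 4 libraries). KCNE4 was likewise below in all 3, at 45.4, 47.2 and 39.1 CPM against 52.2, 48.0 and 50.03 CPM in NC, a small gap (-0.20, adjusted p = 0.234).

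Other potassium channel genes lay apart without passing the test, in both directions. KCNK2 (TREK), a stretch- and lipid-sensitive two-pore channel, stood at 7.65, 7.66 and 8.22 CPM in NC and 9.21, 9.39 and 9.65 CPM in SiCIRBP libraries, close within each group (log2 fold change 0.27, adjusted p = 0.248 over 4 libraries). KCNK6, another two-pore channel, stood at 5.89, 4.78 and 5.93 CPM in NC and 6.62, 8.81 and 12.2 CPM in SiCIRBP libraries (0.82, SE 0.30, adjusted p = 0.0999). KCNS2 had 3.34, 1.62 and 3.43 CPM in SiCIRBP and 3.68, 5.06 and 4.04 CPM in NC libraries (-0.41, adjusted p = 0.232), and KCNA7 had 0.341, 0.232 and 0.141 CPM against 0.386, 0.506 and 0.431 CPM, on 3.99 to 13.3 counts (-0.92, SE 0.57, adjusted p = 0.287). KCNG1 had 34.4, 41.9 and 51.4 CPM in NC and 48.9, 38.4 and 44.7 CPM in SiCIRBP libraries, which overlapped (0.02, adjusted p = 0.916).

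KCNMA1, the most abundant channel, had 321, 322 and 296 CPM in NC and 319, 371 and 337 CPM in SiCIRBP libraries. The groups overlapped, and the log2 fold change was 0.10 (SE 0.08, adjusted p = 0.413) over 4 libraries and 0.14 (SE 0.11, adjusted p = 0.443) over 6. On the TPM scale the same gene had 210, 194 and 170 in NC and 212, 292 and 252 in SiCIRBP libraries, which did not overlap. Of the pacemaker channels, which open on hyperpolarization, HCN3 was the higher, with 6.98, 7.55 and 7.82 CPM in NC and 7.68, 5.10 and 8.69 CPM in SiCIRBP libraries, which lay within, below and above the NC range (0.11, adjusted p = 0.663 over 4 libraries).

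Among the TRP genes, TRPM7 fell and TRPV1 rose over the 4 libraries. TRPM7 (chr15:50552473-50686815) stood at 90.2, 102 and 108 CPM in NC and at 76.4, 62.2 and 76.6 CPM in SiCIRBP libraries. All SiCIRBP values were lower, SiCIRBP_2 most. The log2 fold change was -0.44 (SE 0.08, adjusted p = 0.0175 by edgeR) over 4 libraries and -0.46 (SE 0.13, adjusted p = 0.119) over 6. TRPV1, the heat- and capsaicin-gated channel of sensory neurons (chr17:3565444-3609411), stood at 5.16, 2.99 and 3.94 CPM in NC and at 8.60, 4.44 and 8.87 CPM in SiCIRBP libraries. SiCIRBP_1 and SiCIRBP_3 were above all NC values, and SiCIRBP_2 lay within the NC range. The log2 fold change was 1.34 (SE 0.20, adjusted p = 0.0105), a fold of 2.54, over 4 libraries and 0.87 (SE 0.32, adjusted p = 0.165) over 6. Of its sequence words, 26.1% also occur in AC027796.3 on the same strand, so the split of reads between them is uncertain.

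TRPC1, a subunit of receptor-operated cation channels, stood at 7.09, 7.23 and 6.86 CPM in NC and 4.23, 4.06 and 4.88 CPM in SiCIRBP libraries. The groups were well apart and close within themselves, with a log2 fold change of -0.61 (SE 0.18, adjusted p = 0.0599) over 4 libraries and -0.67 (SE 0.18, adjusted p = 0.110) over 6, where DESeq2 gave an adjusted p of 0.0315. TRPV4, which opens on swelling and warmth, had 7.86, 8.63 and 8.35 CPM in NC and 3.11, 2.98 and 7.14 CPM in SiCIRBP libraries. It lay lower in all 3, with SiCIRBP_3 close to the NC values (-0.71, SE 0.36, adjusted p = 0.197 over 4 libraries). TRPM4 had 17.6, 19.7 and 19.3 CPM in NC and 22.1, 19.9 and 23.0 CPM in SiCIRBP libraries, all SiCIRBP values above (0.23, adjusted p = 0.190), and TRPC4AP had 122, 131 and 136 against 138, 138 and 132 CPM, overlapping (0.04, adjusted p = 0.769).

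**Figure D3:**
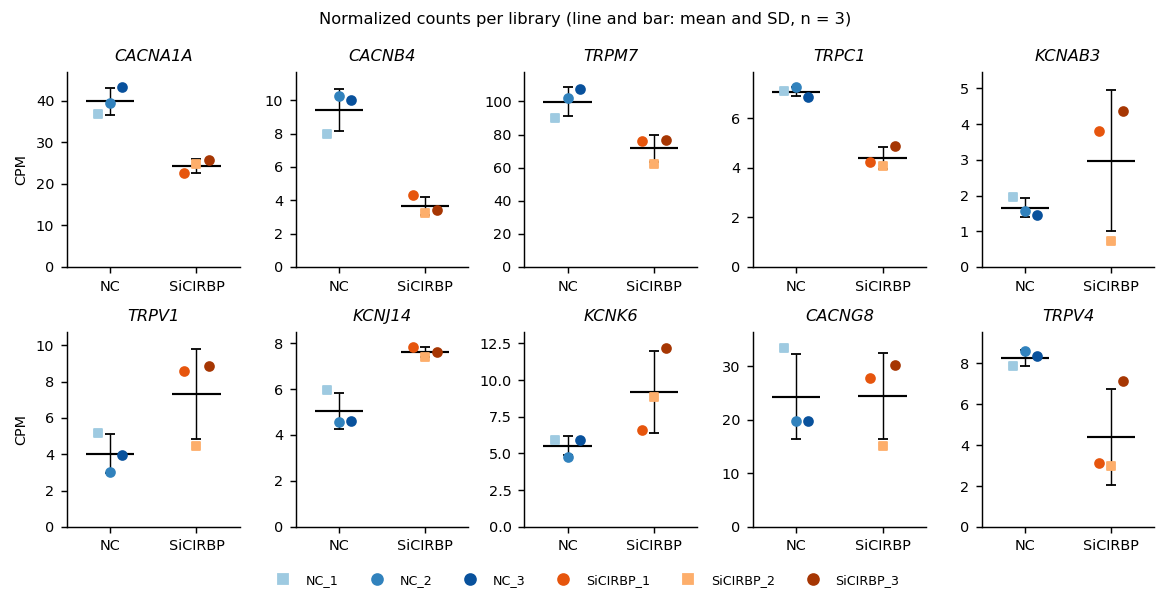
Normalized counts (CPM) of 10 channel genes in each library, with squares for the set-aside libraries NC_1 and SiCIRBP_2 and a line and bar for mean and SD (n = 3). CACNA1A, CACNB4, TRPM7 and TRPC1 are lower and KCNJ14 and KCNK6 higher in all 3 SiCIRBP libraries, whereas KCNAB3, TRPV1 and CACNG8 overlap between groups once the squares are counted.

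Counted over all 6 libraries, 4 of the 57 members had every SiCIRBP value above every NC value (KCNJ14, KCNK2, KCNK6 and TRPM4), where 15.2% of all genes did. A further 12 had every SiCIRBP value below (among them CACNA1A, CACNA2D1, CACNB4, CACNG7, KCNA7, KCNAB2, KCNE4, KCNS2, TRPC1, TRPM7 and TRPV4), where 17.5% of all genes did, so that 16 members had groups that did not overlap, against 32.7% of all genes. An exact permutation test of 3 against 3 libraries cannot give a two-sided p below 0.1. The 28 members outside the rule for naming had mean CPM of 0.340 to 12.8, with 17 of them under 1 CPM, and log2 fold changes of -1.24 to 1.89 over the 4 libraries with no adjusted p below 0.102.

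SiCIRBP_2 stood apart from the other SiCIRBP libraries for many channel genes. It was the lowest of the 6 libraries for 29 of the 57 members, where 32.8% of all genes were lowest there, and the highest for 6, where 30.5% of all genes were. Over the mean of the NC libraries, the median log2 value of the channel genes was 0.03 in SiCIRBP_1, -0.58 in SiCIRBP_2 and -0.05 in SiCIRBP_3, beside medians of -0.02, -0.04 and -0.02 for all genes. Below the NC mean lay 26 of the 57 in SiCIRBP_1, 39 in SiCIRBP_2 and 32 in SiCIRBP_3, beside 52%, 52.3% and 52.5% of all genes. The low median in SiCIRBP_2 was not particular to these genes. Among the lists given below, it was -0.82 for other cation channels and -0.62 for chloride and volume-regulated channels. Surface pumps and exchangers had -0.57 in SiCIRBP_2, whereas calcium store genes had -0.03 and channel partners -0.06. Levels of 28 interferon-stimulated genes also set this library apart, whose summed level was 879 to 913 TPM in NC libraries, 406 and 1760 TPM in the other SiCIRBP libraries and 9002 TPM in this one. The 8 smooth muscle markers summed to 1290 TPM in SiCIRBP_2, 172 and 270 in the other SiCIRBP libraries and 348.7 to 391.9 in NC libraries. Their part in the channel values was not tested.

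**Figure D4:**
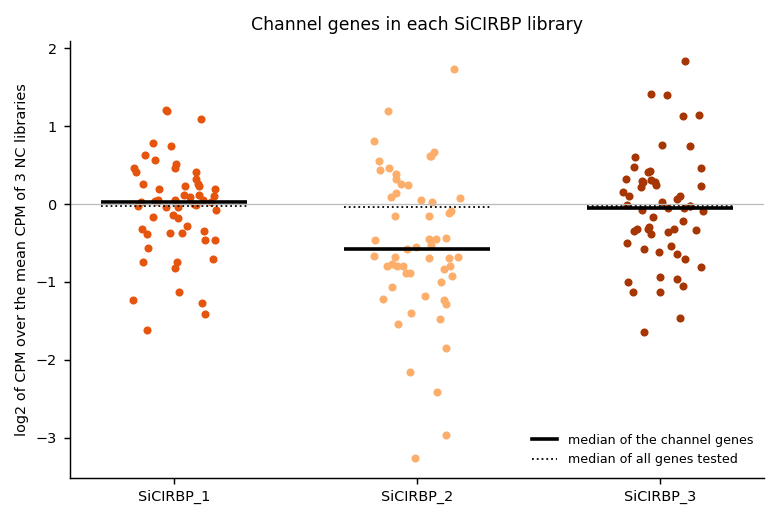
Log2 of CPM in each SiCIRBP library over the mean CPM of the 3 NC libraries, 1 point per channel gene, with the solid line at the median of the 57 channel genes and the dotted line at the median of all genes tested. The channel median is -0.58 in SiCIRBP_2 and lies near 0 in SiCIRBP_1 and SiCIRBP_3.

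The TPM values depend on the transcript length assigned to a gene in each library, which the ratio of count to TPM returns. In 26 members with at least 50 counts and 1 TPM in every library, this implied length varied by a median of 1.2-fold over the 6 libraries, beside 1.12-fold in all 11183 such genes, and by under 1.2-fold in 13. It was longer in all SiCIRBP than in all NC libraries for 2 of the 26, TRPC1 and CACNB1 (9.85% of all such genes), and shorter for 3, KCNMA1, HCN3 and TRPC4AP (7.99%). For TRPC1 it was 2746, 2662 and 2409 bases in NC and 4310, 2957 and 3573 bases in SiCIRBP libraries, so that its TPM fell further apart than its counts, to 1.35, 1.69 and 1.89 TPM against 3.68, 3.89 and 4.18 TPM in NC. For KCNMA1 it was 2182, 2379 and 2555 bases in NC and 2070, 1569 and 1853 bases in SiCIRBP libraries, which accompanies the TPM values that did not overlap where the counts did.

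The TPM of CACNA1C was set by 1 library. It had 25.5 TPM in SiCIRBP_2 and 2.58 to 7.34 TPM in the other 5 libraries, although its CPM was lowest in SiCIRBP_2, and its implied length there was 334 bases beside 2472 to 6577 in the others. KCNQ5, a voltage-gated potassium channel of slow kinetics, had an implied length of 5635, 5286 and 3051 bases in NC and 6813, 2042 and 6363 bases in SiCIRBP libraries, shortest in SiCIRBP_2, a range of 3.34-fold. By construction, a level in TPM is scaled by this length, whereas the counts tested above were not corrected for it. A longer transcript yields more counts, so a change in the transcripts used could also move the counts. That was not tested.

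**Figure D5:**
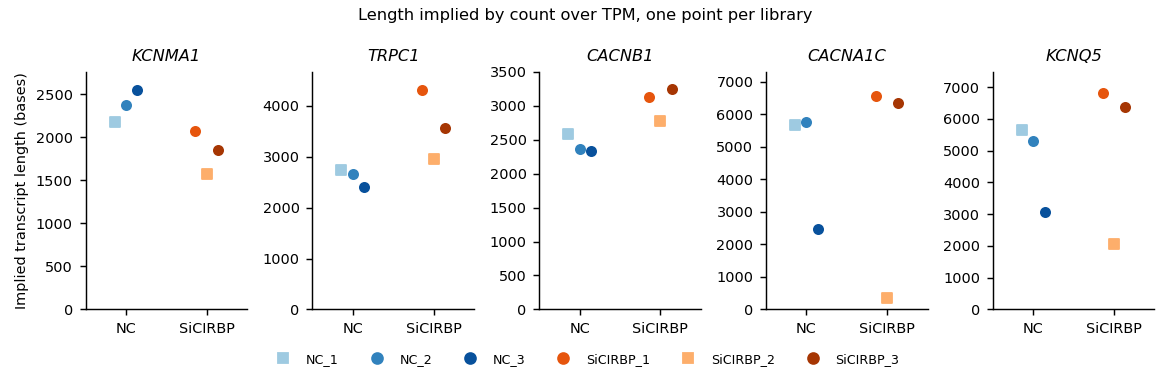
Transcript length in bases implied by count over TPM for 5 channel genes, 1 point per library, with squares for NC_1 and SiCIRBP_2. KCNMA1 is shorter and TRPC1 and CACNB1 longer in all 3 SiCIRBP libraries, and CACNA1C falls to 334 bases in SiCIRBP_2.

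Genes that work beside these channels were counted over the same 4 libraries, where 9.62% of all genes rose, 9.76% fell and 19.4% did either. Of 24 tested genes of calcium stores and store-operated entry, 1 rose and 2 fell. TMCO1, a calcium load-activated channel of the endoplasmic reticulum, rose (log2 fold change 0.50, SE 0.11, edgeR adjusted p = 0.0258; 0.23 over 6 libraries, where the groups overlapped), while MICU3, a regulator of the mitochondrial uniporter (-1.05, SE 0.23, adjusted p = 0.0266), and ITPR1, the inositol trisphosphate receptor (-0.84, SE 0.20, adjusted p = 0.0332), fell. Of 16 tested pumps and exchangers of the surface membrane, 2 rose and 3 fell. ATP2B4, a calcium pump, rose by 0.78 (SE 0.09, adjusted p = 0.00627) over the 4 libraries, but was lowest of all 6 in SiCIRBP_2, at 74.2 CPM, with a value of 0.40 over 6. The bicarbonate transporter SLC4A7 (-0.96, SE 0.14, adjusted p = 0.0100) and the chloride cotransporters SLC12A2 (-0.50, SE 0.11, adjusted p = 0.0240) and SLC12A7 (-0.79, SE 0.17, adjusted p = 0.0259) fell.

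Of 23 tested partners and regulators of channels, 4 rose and 2 fell. CALM3, a calmodulin gene, rose by a log2 fold change of 0.75 (SE 0.09, adjusted p = 0.00614), with all SiCIRBP above all NC values. AKAP9, which anchors protein kinase A to a potassium channel complex, fell (-0.80, SE 0.14, adjusted p = 0.0151), and FGF14, which binds sodium channels, rose (1.04, SE 0.23, adjusted p = 0.0276) at a level under 1 TPM, with 0.54 over 6 libraries and groups that overlapped. Of 17 tested other cation channels, none rose and the stretch-activated PIEZO2 fell (-0.55, SE 0.08, adjusted p = 0.0111). Of 17 tested chloride and volume-regulated channels, LRRC8A, the obligatory subunit of the volume-regulated anion channel, rose (0.58, SE 0.09, adjusted p = 0.0114) and ANO6, a calcium-activated scramblase and channel, fell (-0.55, SE 0.07, adjusted p = 0.00842). Over all 6 libraries edgeR called 0 of 15217 genes, and so none of these. Their smallest adjusted p-values by that test were 0.0913 for LRRC8A and 0.0940 for SLC4A7.

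Other marker lists were counted over the same 4 libraries, where 9.62% of all genes rose and 9.76% fell. Their part in the channel values was not tested. Neuronal markers, of which 6 of 10 reached 1 TPM in some library, summed to 127 to 139 TPM in NC and 241 to 300 TPM in SiCIRBP libraries, almost all of it TUBB3, a tubulin (1.02, SE 0.07, edgeR adjusted p = 0.00262). Endothelial markers summed to 12.8 to 16.1 TPM in NC and 9.51 to 15.8 TPM in SiCIRBP libraries, and VWF rose (2.56, SE 0.64, adjusted p = 0.0369) at no more than 0.33 TPM in any library. Of 5 smooth muscle markers tested over the 4 libraries, 1 rose (SMTN) and 1 fell (TAGLN). Of 12 fibroblast and mesenchymal markers tested, 1 rose (COL1A1) and 2 fell (DDR2 and PDGFRA). Of 4 cardiomyocyte markers tested, none rose and 2 fell (GATA4 and NKX2-5). Of 22 genes of the integrated stress response, which cells switch on when translation is limited, 12 fell and none rose over the 4 libraries, led by CEBPB (-1.05, SE 0.14, adjusted p = 0.00766) and DDIT3 (-1.75, SE 0.26, adjusted p = 0.0103), and their summed level was 2968 TPM in NC_1, 4068 and 4584 in NC_2 and NC_3 and 2511 to 3419 TPM in SiCIRBP libraries. None of the 28 interferon-stimulated genes passed the test over the 4 libraries.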

How the data were processed

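RNA-seq libraries of human ventricular cardiomyocytes (3 NC, 3 SiCIRBP) were analysed from the table the authors deposited. The submitters' processing notes name fastp, HISAT and RSEM and build hg38, without versions. Strandedness is not given in the sources used here. For each gene and library, the authors deposited an estimated count, not normalized and not always whole, and a TPM value, scaled by assigned transcript length. A second table holds only the authors' own comparisons and was not used. After rounding, the counts were compared by edgeR 4.0.16 under R 4.3.3 (TMM, filterByExpr, quasi-likelihood test, Benjamini-Hochberg adjustment over all genes tested). DESeq2 1.42.0, other filters and scalings, each library left out and a replicate block were alternatives. The procedure was tested on simulated data. CPM are TMM-normalized. Implied transcript length is count over TPM, scaled per library by the median of 11183 genes and set in bases by 499 genes with a single transcript. Gene spans and shared 31-base words come from GENCODE 29 on GRCh38, and promoters from RefSeq. Totals were 25726259 to 29919566 counts, so counting error is not small for genes with few counts. Members named are those called over 4 libraries, those whose groups do not overlap over 6 libraries, the highest in each role, the 10 highest overall and those beside the count rule. KCNQ5, CACNB1, KCND3 and the cardiac channels at or near 0 were named after their values were seen. Some genes counted among the calls are not reported here by name. The members and lists were chosen with earlier results of these data known.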

Additional observations from a re-analysis of the deposited data

How the results depend on the processing

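The calls rested on which libraries entered. Genes called over the 4 libraries numbered 1484 higher and 1505 lower, with 5 and 3 channel genes. Over all 6 libraries these were 0 and 0, with 0 and 0 channel genes, a median log2 fold change of the channel genes of -0.14 and a CIRBP value of -1.07 (adjusted p = 0.103). Adding NC_1 alone gave 554 higher and 564 lower genes and 2 and 2 channel genes. Adding SiCIRBP_2 alone gave 5 and 13 genes, 0 and 0 channel genes, a channel median of -0.16 and CIRBP at -1.08 (adjusted p = 0.145). With 1 of the 4 libraries left out, where the lone library is assumed to vary like the others, 25 to 3379 genes were higher and 39 to 3669 lower, with 0 to 10 channel genes in each direction, a channel median of -0.0815 to 0.0076 and CIRBP at -0.94 to -0.70. The low counts came without NC_2 (69 and 99) or NC_3 (25 and 39), and the high ones without SiCIRBP_1 (3379 and 3669) or SiCIRBP_3 (3047 and 3371). KCNJ12 was called in opposite directions, lower at -0.69 (adjusted p = 1.8e-06) without SiCIRBP_1 and higher at 0.49 (adjusted p = 7.5e-05) without SiCIRBP_3. DESeq2 over 6 libraries called 635 and 706 genes and 0 and 4 channel genes, with a channel median of -0.11, and with no filter on low counts 2123 genes were higher and 2492 lower, with 7 channel genes in each direction. Same-numbered libraries did not deviate together (correlations of -0.12, 0.01 and -0.03 over 15217 genes), so the numbers were not read as pairs, and the replicate block over 6 libraries gave 1 and 0 genes, 0 and 0 channel genes, a channel median of -0.17 and CIRBP at -1.15 (adjusted p = 0.131). RLE size factors, a minimum of 10 counts in each library and DESeq2 over 4 libraries each kept the 7 channel calls named in the text.

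Signs turned for some named genes that did not pass the test over the 4 libraries. HCN3 was at -0.0415 over 6 libraries by edgeR and -0.0399 by DESeq2, -0.0852 without NC_1 and -0.0715 with the block. KCNJ12 was at -0.30 over 6 libraries by both tools, -0.39 without NC_1, -0.59 with the block and -0.69 to 0.49 with 1 of the 4 libraries left out. CACNA1C was at 0.0609 over 5 libraries without SiCIRBP_2 and -0.0793 to 0.0361 with 1 of the 4 left out, and KCNG1 at -0.0680 over 5 without NC_1 and -0.11 to 0.17 with 1 of the 4 left out. The cause was not tested for any of these. With 2 libraries per group the spread is set mainly by the trend across genes.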
